A study of Arabidopsis thaliana with 22 samples.

Results

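The comparison described here is the response of leaf 10 of Arabidopsis thaliana to elevated CO2 while the leaf was in rapid expansion. It was read from 6 of the 22 arrays of the series, all 3 arrays of expanding leaves grown at 750 ppm CO2 and all 3 of expanding leaves grown at 370 ppm, over 12511 probe sets left after 59 control probe sets were removed. All plants were wild type of the cultivar Col-0. They had 7 days at 370 ppm before they were randomized between 2 growth chambers, 1 at each CO2 level, and effects of CO2 and of the chamber cannot be told apart. Days of 10 h at 21 °C with 300 µmol m-2 s-1 of light alternated with nights of 14 h at 18 °C. The other groups were primordia and mature leaves, with 4 arrays at each CO2 level. Expanding leaves were harvested whole, so fewer cells of a type and less RNA per cell cannot be told apart. The labels call the arrays replicates, and where separate plants are not named the p-values measure the spread between these samples.

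A leaf of Arabidopsis first grows by cell division and then by cell expansion. Dividing cells make many ribosomes, for which they transcribe genes of ribosomal proteins and of ribosome biogenesis factors, the proteins that process ribosomal RNA and assemble the subunits. As cells stop dividing these genes decline, while chloroplast, wall and turnover functions take over. Autophagy, in which ATG8 proteins coat the membranes that enclose cell contents for breakdown, is one such turnover function.

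Levels are deposited log2 values relative to the median probe set of the array, and a difference is the elevated mean minus the ambient mean in log2 with its standard error (SE) from limma. No probe set passed limma's test at an adjusted p under 0.05, which is 0% of those tested, so every difference in expanding leaves below is a value that did not pass. At an unadjusted p under 0.05, 764 probe sets were higher (6.11%) and 1073 lower (8.58%). The 3 elevated arrays lay wholly above the 3 ambient arrays for 930 probe sets (7.43%) and wholly below them for 1617 (12.9%). The median difference over all probe sets was -0.03, and 55.9% of differences were below 0. Differences were small: 31 probe sets were at least 2-fold higher and 1 was at least 2-fold lower. With the arrays weighted by their quality, 154 probe sets were called higher (1.23%) and 233 lower (1.86%), and without ambient replicate 1 the unweighted fit called 81 in all.

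Genes of the cytosolic ribosome led the lower side. Of 214 listed ribosomal protein genes 112 had a probe set naming a single gene, and 110 of these had a difference below 0. Their median difference was -0.26, which is a level 16.8% lower, against -0.03 over all probe sets. At an unadjusted p under 0.05, 70 were lower, or 62.5% against 8.58% of all probe sets, and 0 were higher. The arrays did not overlap for 67 of them, all lower, or 59.8% against 12.9% of all probe sets. No member was called by limma, and 24 were called lower with array weights, where 1.86% of all probe sets were.

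The list's median level per array was 3.38, 3.31 and 3.34 at elevated CO2 and 3.52, 3.71 and 3.64 at ambient CO2. The 2 groups did not overlap, and ambient replicate 1 lay nearest the elevated arrays. Both subunits contributed: 39 of 41 small subunit genes and 71 of 71 large subunit genes were below 0, with medians of -0.27 and -0.26. Ribosomal protein transcripts are abundant, and 88 of the 112 lay among the 1252 probe sets with the highest mean level. Those 1252 probe sets had a median difference of -0.09, or -0.08 without the ribosomal lists. The ribosomal protein genes outside them had a median of -0.26.

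**Figure D1:**
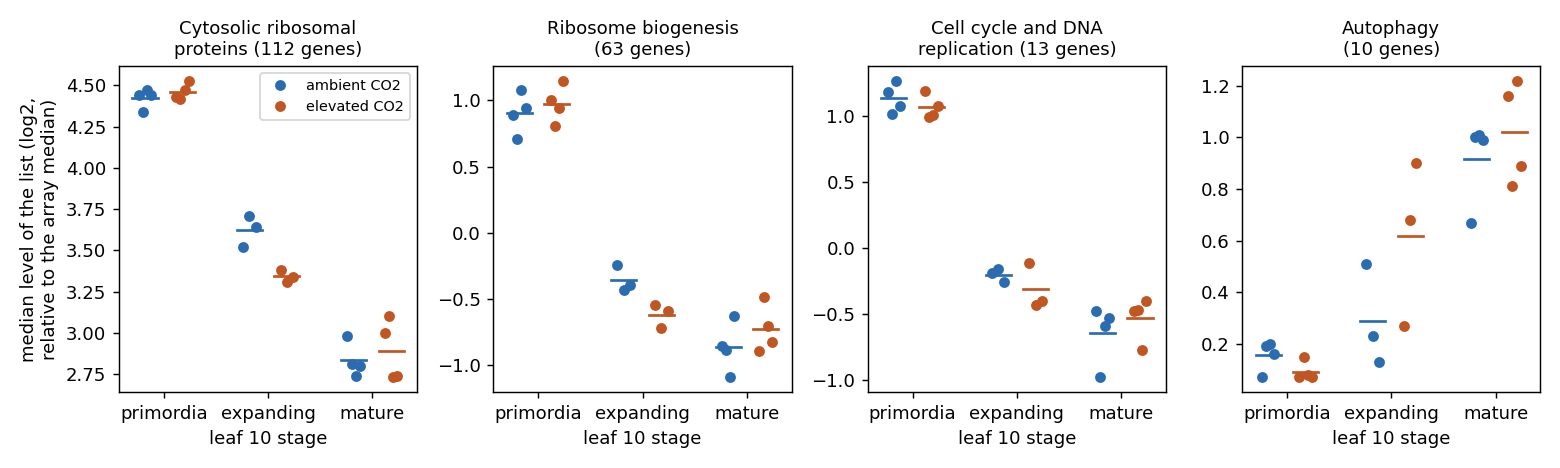
Median log2 level of 4 gene lists on each array, relative to the array median, by leaf stage and CO2 level. Points are arrays and lines are group means. In expanding leaves the ribosomal protein list lay at 3.31 to 3.38 at elevated CO2 and at 3.52 to 3.71 at ambient CO2, while the autophagy list overlapped between the groups.

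AT4G29410, a large subunit gene, was at 2.83, 2.65 and 2.69 at elevated CO2 and at 3.10, 3.15 and 3.26 at ambient CO2. Its difference was -0.45 ± 0.10 (SE, n = 3 and 3, limma adjusted p 0.0974). AT3G07110, also of the large subunit, was at 3.84, 3.83 and 3.80 against 4.16, 4.24 and 4.22. All elevated arrays of both genes were below all ambient ones. For AT3G14600 the levels were 3.00, 2.95 and 3.00 against 3.29, 3.31 and 3.30, a difference of -0.32 ± 0.08. AT3G52580 of the small subunit was at 2.69, 2.39 and 2.40 against 2.78, 2.96 and 2.99. The largest negative value of the list was that of AT1G23410 at -0.62 ± 0.32 (adjusted p 0.363). The genes above 0 were AT5G39850 at 0.31 ± 0.19 and AT3G04230 at 0.20 ± 0.14, both with overlapping arrays. Ribosomal proteins are encoded by families of near-identical genes, so a probe set may also read a relative.

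Ribosome biogenesis factors followed. Of 123 listed genes 63 were measured, 59 of them below 0, with a median of -0.24. At an unadjusted p under 0.05, 21 were lower, or 33.3% against 8.58%, and 0 higher, and 25 had elevated arrays wholly below the ambient ones, or 39.7% against 12.9%. AT1G52930 was at 0.34, 0.27 and 0.74 at elevated CO2 against 1.07, 1.16 and 1.14, a difference of -0.67 ± 0.14 (limma adjusted p 0.0962). AT5G04600 was at 0.69, 1.09 and 1.2 against 1.74, 1.48 and 1.47. The groups were apart for both genes. AT5G65900 had a difference of -0.57 ± 0.14 and was also lower on every elevated array.

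Subunits of the nuclear RNA polymerases had 9 of 10 measured genes below 0 and a median of -0.11. NRPC2, the second largest subunit of the polymerase that makes transfer RNA, differed by -0.37 ± 0.13 with no overlap. All 13 measured genes of the cell cycle and DNA replication, of 178 listed, were below 0, with a median of -0.21. The arrays were apart for 2 of them, or 15.4% against 12.9%, close to the background. Without ambient replicate 2 the list's median was -0.13. AUR1, an Aurora kinase of mitosis, was at -1.48, -1.49 and -1.23 against -1.12, -0.70 and -0.49. HTB1, a histone H2B gene, differed by -0.31 ± 0.15 with overlapping arrays. HTR12, the centromeric histone H3, differed by only -0.06 ± 0.18.

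The ribosomal lists did not lie lower at elevated CO2 in the other stages. The median CO2 difference of the ribosomal protein list was 0.02 in primordia and 0.08 in mature leaves, where 80 and 92 of the 112 were above 0, against 52% and 45.8% of all probe sets. The difference between the CO2 effects was itself fitted. Against mature leaves, 71 of the 112 had a more negative CO2 difference in expanding leaves at an unadjusted p under 0.05 (6.14% of all probe sets), and against primordia 47 did (7.02%). At an adjusted p under 0.05 limma called 4 probe sets against mature leaves (0.032%) and 0 against primordia (0%), none of them a member of the ribosomal lists. For ribosome biogenesis the counts were 27 and 20 of 63, also with 0 called.

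Autophagy genes stood on the higher side. All 10 measured of 45 listed, which were ATG3 and 9 genes of the ATG8 family, had a difference above 0 (44.1% of all probe sets), with a median of 0.27, a level 20.8% higher. At an unadjusted p under 0.05, 3 were higher, or 30% against 6.11%, and none was called. ATG8F was at 2.83, 2.73 and 2.86 against 2.61, 2.49 and 2.51, with no overlap. APG8A was at 0.17, 0.79 and 1.03 against 0.45, 0.17 and 0.20, so elevated replicate 1 lay among the ambient arrays. ATG8C and ATG8H were apart at differences of 0.14 ± 0.10 and 0.29 ± 0.18. The list's median level was 0.27, 0.68 and 0.90 at elevated CO2 and 0.51, 0.23 and 0.13 at ambient CO2, which overlap. In primordia all 10 differences were below 0 (48% of all probe sets), with a median of -0.11. Fitted as a difference, 6 of the 10 had a more positive CO2 effect in expanding leaves than in primordia at an unadjusted p under 0.05 (4.86%), and none was called. Against mature leaves, where the median CO2 difference was 0.05 with 7 of 10 above 0, 0 of the 10 did. The median of 0.27 in expanding leaves was 0.16 without ambient replicate 3 and 0.17 without elevated replicate 3. ATG8 genes resemble each other in sequence, so their probe sets may share signal.

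Genes of vesicle traffic lay on both sides. Of 35 measured, 6 were wholly higher (17.1% against 7.43%) and 3 wholly lower (8.57% against 12.9%). VPS2.2, a subunit of the ESCRT-III complex that buds vesicles into endosomes, was at -1.25, -1.26 and -1.24 against -0.56, -0.47 and -0.32, a difference of -0.80 ± 0.21. The others wholly lower were PRA1.B4 and PRA1.B1. Wholly higher were SNF7.1 at 0.27 ± 0.11, VPS22 at 0.23 ± 0.10, VPS60.2 at 0.36 ± 0.16, VPS46.2, SEC6 and KEU. KEU, a protein of membrane fusion in cell division, was at 0.71, 0.73 and 0.86 against 0.51, 0.25 and 0.29.

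Wall and growth genes showed no common direction. Of 71 listed expansins and XTHs, which loosen the wall or remodel its xyloglucan, 11 were measured. Of these 7 were below 0, and the median of the 11 was -0.02. EXPA16 was at -0.93, -1.08 and -1.0 against -0.72, -0.31 and -0.57, while EXPA9 differed by 0.40 ± 0.19 with overlapping arrays. XTH16 differed by -0.52 ± 0.32. Of 5 measured pectin genes 4 were above 0, with a median of 0.25, and the arrays overlapped for all 5. Without ambient replicate 1 that median was 0.11. PMEPCRF, a pectin methylesterase, differed by 0.46 ± 0.20. Among 6 measured of 36 listed leaf growth regulators the median was -0.05. ARL, a relative of the organ size gene ARGOS, differed by 0.65 ± 0.24 with overlapping arrays, or by 0.34 without elevated replicate 3, and YAB3, a YABBY factor of the lower leaf side, by -0.28 ± 0.12. FMA, the guard cell factor FAMA, was at -1.39, -1.01 and -0.88 against -0.53, -0.58 and -0.60.

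Genes of the light reactions had small median differences. Of 129 listed nuclear genes of the light reactions only 13 were measured. Their median was -0.04, and 2 of the 13 were wholly lower (15.4% against 12.9%). The 33 plastid-encoded genes of the photosystems, cytochrome complex, ATP synthase and Rubisco had a median of 0.07. Of these 21 were above 0 (63.6% against 44.1%). The arrays were apart for 0 of the 33, where 7.43% of all probe sets were wholly higher and 12.9% wholly lower. ATPC1, the gamma subunit of chloroplast ATP synthase, was at 5.27, 5.40 and 5.09 against 5.52, 5.45 and 5.65. The plastid genes psbA and psbM, both of photosystem II, differed by 0.53 ± 0.27 and -0.46 ± 0.24, with overlapping arrays. Calvin cycle and photorespiration had 4 measured genes each, with medians of -0.05 and -0.12. PRK, phosphoribulokinase, differed by -0.11 ± 0.13, and HPR, the peroxisomal hydroxypyruvate reductase, by -0.15 ± 0.14. Of 8 measured genes of chlorophyll and carotenoid synthesis, of 28 listed, 7 were below 0 (87.5% against 55.9%). The median was -0.19, and 3 were wholly lower (37.5% against 12.9%). GSA1, which makes the chlorophyll precursor aminolevulinate, was at 2.67, 2.73 and 2.59 against 3.01, 3.11 and 3.09.

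Respiratory and carbohydrate genes differed by list. The TCA cycle (18 of 40 listed genes measured), mitochondrial electron transport (57 of 122) and starch and sucrose (11 of 51) had medians of -0.02, -0.04 and 0.07. DPE1, a disproportionating enzyme of starch breakdown, differed by -0.25 ± 0.11. In glycolysis 10 of 40 listed genes were measured, and 7 of the 10 were below 0, with a median of -0.12. The arrays were apart for 3, all lower, or 30% against 12.9%. The list's median level was 0.91, 1.05 and 1.0 at elevated CO2 and 1.17, 1.25 and 1.41 at ambient CO2, with no overlap. The 3 genes were AT5G42740 at -0.36 ± 0.11, AT1G12000 at -0.38 ± 0.13 and AT1G20950 at -0.27 ± 0.09. The other 27 lists with at least 3 measured members had medians between -0.13 and 0.09, and no member was called.

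**Figure D2:**
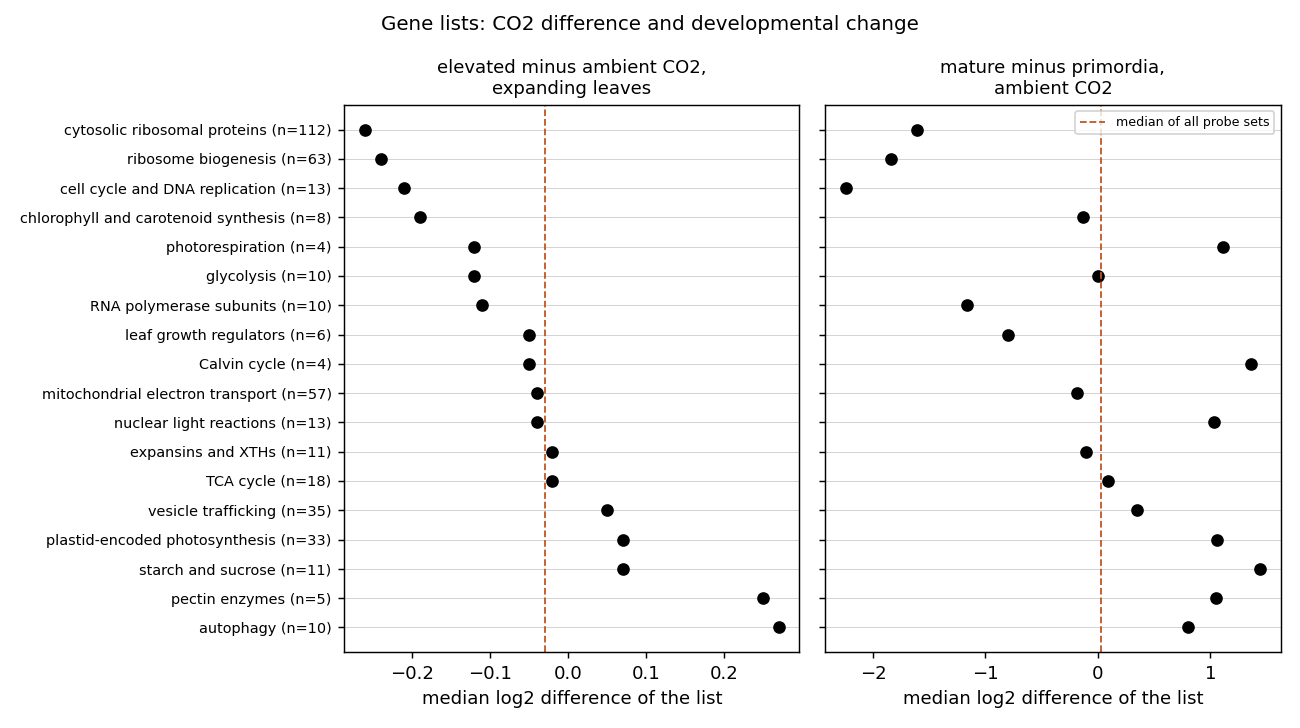
Median log2 difference of each gene list between elevated and ambient CO2 in expanding leaves (left) and between mature leaves and primordia at ambient CO2 (right), with the number of measured genes. The dashed line is the median of all probe sets. Ribosomal lists were low on both sides, at -0.26 and -1.61 for ribosomal proteins, while nuclear light reactions were at -0.04 and 1.03.

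Single genes with the smallest p were of many kinds. AT1G77550 was at -1.55, -1.63 and -1.55 at elevated CO2 and -0.99, -0.83 and -1.06 at ambient CO2, and had the smallest adjusted p of the comparison (limma, 0.0711). AT5G27330 differed by -0.91 ± 0.19 and AT1G78930 by -0.82 ± 0.15. On the higher side, AT3G60540 was at -0.67, -0.20 and 0.11 against -1.13, -1.79 and -1.93. Its difference of 1.37 ± 0.33 was 2.58-fold (limma adjusted p 0.115). CuAO1, a copper amine oxidase that oxidises polyamines, was at -0.71, -0.57 and -0.58 against -1.28, -1.38 and -1.42. ENGase85A, which frees sugar chains from glycoproteins, was at -1.32, -1.22 and -0.78 against -1.74, -1.99 and -2.36. SRC2, a C2 domain protein, differed by 0.57 ± 0.13 and AT3G08990 by 0.90 ± 0.17. All of these were apart between the groups because they were chosen only among genes whose arrays did not overlap.

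How far the shift resembled further development was measured against a direction that uses none of the expanding arrays. Each array was projected on the line from the mean of ambient primordia, set at 0, to the mean of ambient mature leaves, set at 1. Ambient expanding leaves were at 0.721, 0.641 and 0.651, a mean of 0.671 ± 0.044 (SD, n = 3). Elevated expanding leaves were at 0.735, 0.793 and 0.799, a mean of 0.776 ± 0.035 (SD, n = 3). The groups did not overlap, although ambient replicate 1 and elevated replicate 1 were close. The difference of 0.105 was 31.9% of the distance left from ambient expanding to mature leaves. The exact two-sided permutation p was 0.1, the smallest that 20 arrangements of 3 against 3 arrays allow.

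At the other stages the elevated means were -0.003 ± 0.036 in primordia and 1.007 ± 0.037 in mature leaves (SD, n = 4), so their distances from the ambient means of 0 and 1 were smaller than these spreads. The difference in expanding leaves was 0.103 without the ribosomal protein and ribosome biogenesis lists and 0.108 without the 1252 brightest probe sets, both chosen after seeing the data. Computed from probe sets lower in mature leaves than in primordia it was 0.124, with ambient arrays from 0.572 to 0.654 and elevated arrays from 0.687 to 0.757. From probe sets higher in mature leaves it was 0.089, and there the highest ambient array and the lowest elevated array met at 0.776 (exact permutation p 0.2).

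**Figure D3:**
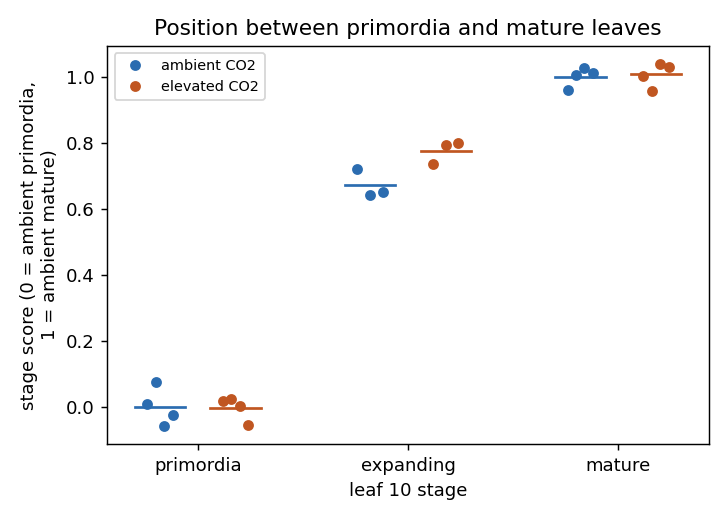
Stage score of each array, by leaf stage and CO2 level, where 0 is the mean of ambient primordia and 1 the mean of ambient mature leaves. Points are arrays and lines group means. Expanding leaves at elevated CO2 sit at 0.735 to 0.799, above the 0.641 to 0.721 of ambient ones.

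The CO2 difference followed the size of the developmental change, in bins chosen after seeing the data. For 94 probe sets more than 3 log2 units lower in mature leaves than in primordia the median CO2 difference was -0.46. Of these 52.1% had elevated arrays wholly below the ambient ones, against 12.9% of all probe sets. The median was -0.28 for 369 probe sets lower by 2 to 3 units and -0.18 for 1522 lower by 1 to 2 units. It was 0.02 for 4267 probe sets higher by up to 1 unit and 0.18 for 390 higher by 2 to 3 units. For 170 higher by more than 3 units it was 0.30, and 23.5% of them were wholly higher, against 7.43% of all probe sets. Leaving out the ribosomal lists gave the same medians in these bins. Over all 12511 probe sets, which share arrays and are not independent, the correlation between the CO2 difference in expanding leaves and the developmental change was 0.516.

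**Figure D4:**
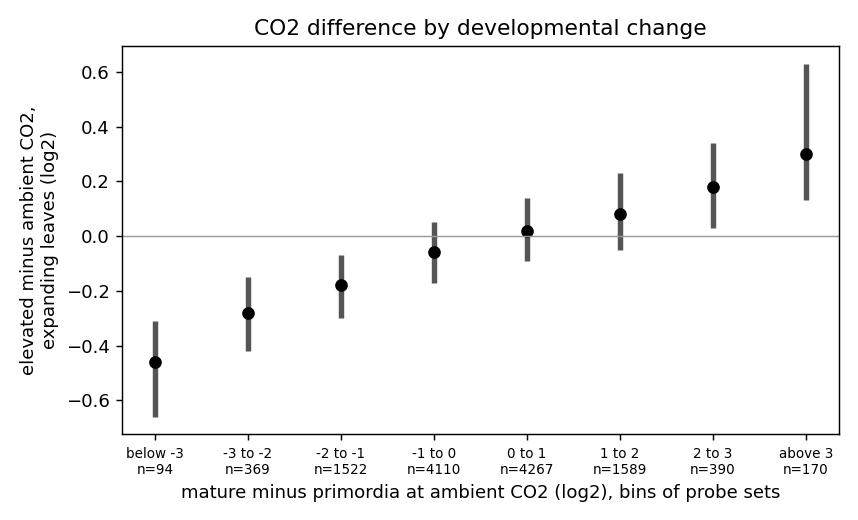
Elevated minus ambient difference in expanding leaves (log2) for probe sets binned by their mature minus primordia difference at ambient CO2 (log2). Points are medians, bars run from the first to the third quartile, and n is the number of probe sets. The medians run from -0.46 in the bin with the strongest decline to 0.30 in the bin with the strongest rise.

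The ribosomal protein list had a median developmental change of -1.61, with 111 of 112 members called lower in mature leaves by limma (38.2% of all probe sets). Ribosome biogenesis was at -1.84 with 62 of 63 called lower, and autophagy at 0.80 with 9 of 10 called higher (39.8% of all probe sets). The nuclear light reactions had 12 of 13 measured members, of 129 listed, called higher in mature leaves. Their median was 1.03, but their CO2 median was -0.04. Plastid-encoded photosynthesis had 33 of 33 called higher, with a median of 1.06 and a CO2 median of 0.07. Calvin cycle and photorespiration each had 4 of 4 called higher. Their medians were 1.36 and 1.11, and their CO2 medians -0.05 and -0.12. The median change of the nuclear light reactions was 1.04 before expansion (expanding minus primordia, ambient CO2) and -0.02 after it (mature minus expanding). It was -0.79 and -0.83 for ribosomal proteins and -1.29 and -0.46 for ribosome biogenesis. For the cell cycle it was -1.54 and -0.54, and for autophagy 0.27 and 0.68. These values share the ambient arrays with the CO2 comparison, and a link of the CO2 difference to either step was not tested. Of the 1617 probe sets wholly lower at elevated CO2, 76.3% had a developmental change below 0, against 48.7% of all probe sets. Among the 1617, 684 were at least 2-fold lower in mature leaves and 99 at least 2-fold higher. EXPA16 was among the latter, with a developmental change of 2.48. Of the 930 wholly higher, 84.0% had a developmental change above 0, against 51.3% of all probe sets. Among the 930, 363 were at least 2-fold higher in mature leaves and 13 at least 2-fold lower.

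Probe sets with little developmental change were less often apart than all probe sets by count, with no test of that difference. Among 4994 probe sets within 0.5 log2 units of no developmental change, 290 were wholly higher (5.81% against 7.43%) and 449 wholly lower (8.99% against 12.9%) in expanding leaves at elevated CO2. Over those probe sets the correlation with the CO2 difference in mature leaves, which comes from other arrays but the same pair of CO2 levels and chambers, was 0.410. Over all probe sets the correlation was 0.413 with the CO2 difference in mature leaves and -0.02 with that in primordia.

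RNA quality and cell type were read from control and marker probe sets. The mean 3-prime minus 5-prime signal of 3 control transcripts was 2.32 to 2.58 at elevated and 2.27 to 2.52 at ambient CO2, which overlap. With it as a covariate limma called 0 probe sets, as without it, so that count cannot show an effect of RNA quality. At an unadjusted p under 0.05 limma had 1865 probe sets with the covariate and 1837 without. In both fits 110 of the 112 ribosomal protein genes were below 0, while XTH16 went from -0.52 to -0.64 with the covariate. Of 10 leaf mesophyll markers 3 were measured, PRK and 2 others, all at high level, and their median CO2 difference was -0.11. Of 7 guard cell markers 2 were measured and both were lower on every elevated array, as were 12.9% of all probe sets. Their differences were -0.52, the same value as that of FMA above, and -0.24. No marker of phloem, xylem, shoot meristem, flower, root or trichome had a probe set naming a single gene, so a part of these cell types in the result was not tested.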

How the data were processed

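Total RNA of leaf 10 was labelled with biotin and hybridised to Affymetrix arrays, per the labels. The authors deposited log2 values, 12570 probe sets by 22 arrays, each array centred on a median of 0. The values run from -6.80 to 6.54, from which base 2 was taken. Sources used here do not give earlier steps or scan dates. The given annotation named 1 gene for 6782 of the 12511 probe sets tested, several for 262 and none for 5467. No sequences are printed, and a planned search of promoters for motifs was not run.

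Limma 3.58.1 (R 4.3.3) estimated a mean for each of the 6 groups and 1 spread per probe set, leaving 16 residual degrees of freedom, with Benjamini-Hochberg adjustment over all 12511 probe sets and two-sided tests. All arrays entered, and none was imputed. The number of arrays limits the precision. The members and gene lists were chosen with earlier results of these data known, some lists after the measured genes were seen. Lists were made by locus or gene name, largely from general knowledge, since the gene table describes few loci. A gene with several probe sets was read from the one with the highest mean. Lists are described by counts and medians, with no test.

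Named genes were the 15 smallest p and 8 largest differences (unadjusted p under 0.01) in each direction among genes whose arrays did not overlap, up to 4 members of each list, and the 5 smallest p of each comparison between stages; not all are printed, and other list members are named beside their list. On simulated arrays with 200 changed probe sets and independent noise, limma called 64% of 1.5-fold and 88% of 2-fold changes in expanding leaves. The simulated noise had 1 spread per probe set on every array, while the quality weights of the real expanding arrays ran from 0.607 to 1.62. These shares therefore need not hold for the real arrays. Alternatives were array weights, quantile normalization, other fits and leaving out each expanding array.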

Additional observations from a re-analysis of the deposited data

Results flagged for a closer look

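The CO2 difference in expanding leaves minus that in mature leaves passed limma's test for 4 of 12511 probe sets (0.032%). In mature leaves alone the CO2 difference of each of the 4 passed (limma adjusted p 0.00214 to 0.0397). In expanding leaves alone none did (0.0711 to 0.204). AT1G77550 was lower at elevated CO2 in expanding leaves and higher in mature leaves, a difference of -0.96 ± 0.14 (adjusted p 0.00389). ChiC, a chitinase, was at -0.79 ± 0.19 in expanding and 0.61 ± 0.16 in mature leaves, a difference of -1.40 ± 0.25 (adjusted p 0.0433). AT4G36640 was at -0.42 ± 0.14 and 0.73 ± 0.13, a difference of -1.15 ± 0.19 (adjusted p 0.027). A further probe set, which carries no single gene name here, was at -0.43 ± 0.13 and 0.75 ± 0.11, a difference of -1.18 ± 0.17 (adjusted p 0.00389). No probe set passed for expanding leaves against primordia in limma, with 608 more positive and 878 more negative at an unadjusted p under 0.05.

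In groups of 4 arrays of the other stages, 1 array stood apart from the rest in some list medians, given as the gap over the group's range. Chance gives such a gap in about 1 of 20 groups. Several lists were looked at in each group, so some such gaps are due by chance alone. A gap is a share of the range, so it can be large where the arrays differ little. The gap was 0.951 for small subunit genes in ambient primordia (levels 4.26 to 4.34). It was 0.865 for large subunit genes in ambient mature leaves (2.81 to 2.98). Autophagy had gaps of 0.941 in ambient mature leaves (0.67 to 1.01) and 0.877 in elevated primordia (0.07 to 0.15). The plastid-encoded photosynthesis genes had 0.879 in elevated mature leaves (3.49 to 3.87). Mitochondrial electron transport had 0.867 in elevated mature leaves (2.36 to 2.56) and also 0.867 in ambient primordia (2.61 to 2.80).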

How the results depend on the processing

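The count of 0 called probe sets in expanding leaves was 387 with array weights, 12 with quantile normalization and 0 to 81 on leaving out 1 array, the 81 without ambient replicate 1. It was 0 with the expanding arrays alone, the brighter probe sets, the RNA quality covariate, and trended robust variances, and 0 with the replicate number as a block. The labels do not say whether same-numbered arrays shared more than a number. Their deviations from the group means correlated at -0.147, 0.0317 and -0.248, and those of differently numbered arrays at -0.143 to 0.277. Deviations from a mean of 3 arrays constrain each other, so these values cannot decide whether arrays were paired. For expanding leaves against primordia the count of 0 was 31 with array weights and 0 to 1 on leaving out an array. Against mature leaves the count of 4 was 8 with array weights, 7 with quantile normalization, 2 without ambient replicate 2 and 7 without elevated replicate 3. The cause of these shifts was not tested. The stage score difference lay between 0.089 and 0.130 over all alternatives.

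The ribosomal protein median was -0.19 with quantile normalization, also for the large subunit alone, and the small subunit was at -0.17. On leaving out an array the median of the whole list ran from -0.31 to -0.22. For the large subunit that range was -0.32 to -0.23. Leaving out an array gave -0.27 to -0.13 for the cell cycle, 0.11 to 0.27 for pectin genes, -0.01 to 0.26 for plastid-encoded photosynthesis, 0.16 to 0.33 for autophagy, 0.03 to 0.12 for vesicle traffic, -0.13 to 0.01 for leaf growth regulators, -0.13 to -0.01 for nuclear light reactions and -0.1 to 0.14 for starch and sucrose. Quantile normalization gave -0.06 for glycolysis and -0.11 for chlorophyll and carotenoid synthesis. RNA polymerase subunits were at -0.19 without elevated replicate 1 and photorespiration at -0.05 without elevated replicate 3. The Calvin cycle was at 0.00 with quantile normalization. Of the 58 genes tried, 18 were called under some alternative and none changed sign. Leaving out 1 array moved 16 of them by over 1.5 times. Without elevated replicate 3, APG8A was at 0.21, AT5G39850 at 0.17, DPE1 at -0.15, HPR at -0.05 and HTR12 at -0.11. Without elevated replicate 2, AT3G04230 was at 0.06, psbM at -0.81 and HTR12 at -0.01, and without elevated replicate 1 APG8A was at 0.64, AT3G04230 at 0.31 and psbM at -0.25. Without ambient replicate 1, EXPA9 was at 0.15, PMEPCRF at 0.70, HTB1 at -0.48, HTR12 at -0.03, SEC6 at 0.11 and AT5G39850 at 0.49. AT5G39850 was at 0.08 and VPS60.2 at 0.23 without ambient replicate 2, and ATG8H was at 0.16 and HTB1 at -0.20 without ambient replicate 3. Centring on the median hides any change shared by most transcripts.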
